A study of Mus musculus with 12 samples.

Results

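Mitochondrial ribosomal proteins are encoded in the nucleus, made in the cytosol and imported into mitochondria. They were taken here as every gene whose single symbol in the platform annotation starts with Mrpl or Mrps followed by a digit. This rule gave 76 of the 18193 genes with 1 symbol on the array, and all 76 were among the 12136 genes that passed a filter on dim signals and were tested. Mrpl30 and Mrpl53 fell outside the rule because their probe sets also carry the symbols Gm6238 and Ccdc142, and they were not analysed here.

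The mitochondrial ribosome translates the few messages of the mitochondrial genome, all of which encode parts of the respiratory chain and the ATP synthase. It has a large and a small subunit, each made of proteins with a bacterial counterpart and of proteins found only in mitochondria, around RNAs from the mitochondrial genome. In fat cells its product, the respiratory chain, burns fuel and maintains the redox balance that lipid synthesis draws on, and berberine, a plant alkaloid, is known as an inhibitor of respiratory complex I.

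The study measured total RNA of 3T3-L1 adipocytes, fat cells differentiated in culture from a mouse embryo fibroblast line, on single-colour Affymetrix 3' expression arrays. Adipocytes of all groups had been induced by 48 h of insulin (5 µg/ml), dexamethasone (1 µM) and the phosphodiesterase inhibitor IBMX (0.5 mM), were used at days 8 to 10, and spent 12 h in DMEM with 0.2% bovine serum albumin before treatment. The 4 groups were DMSO, the solvent control, whose duration the labels do not give, and 5 µM berberine for 3 h, 6 h or 12 h, with 3 arrays each. The labels do not say whether the arrays of a group came from separate cultures, so p-values measure the spread between these arrays, which may be technical, and the contrasts with DMSO share the same 3 DMSO arrays.

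Arrays correlated within groups at r of 0.960 to 0.968 and between groups at 0.950 to 0.966, and no array was left out. These correlations cover the 25053 probe sets that passed the filter on dim signals. Of 10 adipocyte markers 8 were tested, with summed linear signals of 157985 to 203532 in DMSO, 181180 to 205431 at 3 h, 194491 to 217171 at 6 h and 171690 to 189860 at 12 h. All 6 fibroblast markers were also tested, with sums of 53591 to 64376 in DMSO, 61312 to 65316 at 3 h, 59710 to 62763 at 6 h and 59544 to 62302 at 12 h. The macrophage markers Adgre1 and Ptprc, the endothelial markers Pecam1 and Cdh5 and the brown fat markers Ucp1 and Cidea did not pass the filter, and the sums of the markers left in these lists reached at most 298 on any array. At 12 h the adipocyte genes Cidec (log2 change -1.44), Cebpa (-0.59), Retn (-0.51) and Slc2a4 (-0.31) were called lower and Lpl (0.32) higher than in DMSO. Of the 6 fibroblast markers 2 were called lower and 0 higher at 12 h. At 6 h 4 adipocyte markers were called higher and 2 lower, and 1 fibroblast marker higher and 2 lower. At 3 h 1 adipocyte marker was called lower. Among all genes 14.6% were called lower and 13.7% higher at 12 h. The part of these marker changes in the results below was not tested.

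Promoter sequence was available for 67 of the 76 genes, as RefSeq windows on GRCm38.p6 that run from 250 bases before to 50 bases after an annotated start. Nuclear genes for mitochondrial proteins are known for binding sites of NRF1, of the ETS family member GABP and of YY1, so exact cores of these were searched on both strands. The NRF1 core GCGCATGCG was found in 7 of 67 genes (10.4%, against 1.95% of all 27025 genes with a window), the ETS core CCGGAAG in 25 (37.3%, against 9.93%) and the YY1 core AAGATGGCG in 8 (11.9%, against 1.64%). The ETS and YY1 cores share the letters AAG and can overlap. A match describes letters in the window and not a bound site, and a window without a match says nothing about the factor.

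Windows are shown for every gene with a window that fell at both 6 h and 12 h or rose by 12 h, with or without a core, which made 6 and 4 genes. They are in lower case with the cores in capitals on whichever strand they occurred. Mrpl18 lies at chr17:12916042-12916341 on the minus strand, Mrpl34 at chr8:71464676-71464975 on the plus strand, Mrps12 at chr7:28741772-28742071 on the minus strand and Mrps21 at chr3:95871465-95871764 on the minus strand. Mrpl33 lies at chr5:31613701-31614000 on the plus strand and Mrpl50 at chr4:49521034-49521333 on the minus strand. Of these 6 windows 5 hold 1 ETS core, and that of Mrpl50 holds none of the 3 cores.
Mrpl18: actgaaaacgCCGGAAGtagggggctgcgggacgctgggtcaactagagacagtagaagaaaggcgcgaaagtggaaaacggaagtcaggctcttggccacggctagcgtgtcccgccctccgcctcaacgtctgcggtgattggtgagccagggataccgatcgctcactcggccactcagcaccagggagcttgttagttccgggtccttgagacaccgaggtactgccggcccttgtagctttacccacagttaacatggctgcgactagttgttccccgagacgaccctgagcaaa
Mrpl34: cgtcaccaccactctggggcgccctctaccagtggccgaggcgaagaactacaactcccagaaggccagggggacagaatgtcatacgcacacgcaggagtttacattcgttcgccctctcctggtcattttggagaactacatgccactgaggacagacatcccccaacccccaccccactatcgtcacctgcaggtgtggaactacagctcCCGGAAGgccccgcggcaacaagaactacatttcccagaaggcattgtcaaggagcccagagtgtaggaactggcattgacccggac
Mrps12: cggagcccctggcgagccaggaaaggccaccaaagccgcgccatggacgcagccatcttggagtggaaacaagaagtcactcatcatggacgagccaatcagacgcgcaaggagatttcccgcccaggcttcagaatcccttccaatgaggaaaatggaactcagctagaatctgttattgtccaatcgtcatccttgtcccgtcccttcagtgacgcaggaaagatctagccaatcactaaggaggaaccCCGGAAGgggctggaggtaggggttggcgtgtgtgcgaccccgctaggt
Mrps21: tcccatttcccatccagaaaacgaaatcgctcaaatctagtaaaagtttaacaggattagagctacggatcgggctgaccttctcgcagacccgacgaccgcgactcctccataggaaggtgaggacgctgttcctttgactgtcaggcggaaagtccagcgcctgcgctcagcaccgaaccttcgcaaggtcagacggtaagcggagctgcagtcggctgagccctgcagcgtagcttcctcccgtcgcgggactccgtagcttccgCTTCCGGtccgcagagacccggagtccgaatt
Mrpl33: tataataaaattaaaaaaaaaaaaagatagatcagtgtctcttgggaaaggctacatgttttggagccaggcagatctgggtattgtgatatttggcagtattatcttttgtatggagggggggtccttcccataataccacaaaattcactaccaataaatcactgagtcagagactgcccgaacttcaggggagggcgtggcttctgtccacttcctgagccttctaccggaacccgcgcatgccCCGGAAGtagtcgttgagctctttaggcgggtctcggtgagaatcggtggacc
Mrpl50: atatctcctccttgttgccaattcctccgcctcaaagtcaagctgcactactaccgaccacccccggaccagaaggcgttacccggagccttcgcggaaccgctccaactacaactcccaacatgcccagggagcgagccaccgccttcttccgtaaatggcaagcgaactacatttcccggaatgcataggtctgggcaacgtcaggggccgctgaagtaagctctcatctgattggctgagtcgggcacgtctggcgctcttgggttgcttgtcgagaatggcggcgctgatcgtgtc
Among the genes that rose, Mrpl35 lies at chr6:71823735-71824034 on the minus strand and holds the YY1 core. The window of Mrpl57 lies at chr14:57825989-57826288 on the plus strand and holds the ETS core. Mrps18b, at chr17:35916391-35916690 on the minus strand, holds the NRF1 core far upstream and the ETS core near the end of the window, both read on the opposite strand. Mrpl47, at chr3:32736706-32737005 on the minus strand, holds none of them.
Mrpl35: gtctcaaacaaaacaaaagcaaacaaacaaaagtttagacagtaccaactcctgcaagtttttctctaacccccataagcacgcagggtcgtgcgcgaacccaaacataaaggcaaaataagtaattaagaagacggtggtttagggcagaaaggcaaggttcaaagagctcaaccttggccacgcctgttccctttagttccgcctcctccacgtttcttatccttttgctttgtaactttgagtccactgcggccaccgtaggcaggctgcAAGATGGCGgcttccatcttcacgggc
Mrpl57: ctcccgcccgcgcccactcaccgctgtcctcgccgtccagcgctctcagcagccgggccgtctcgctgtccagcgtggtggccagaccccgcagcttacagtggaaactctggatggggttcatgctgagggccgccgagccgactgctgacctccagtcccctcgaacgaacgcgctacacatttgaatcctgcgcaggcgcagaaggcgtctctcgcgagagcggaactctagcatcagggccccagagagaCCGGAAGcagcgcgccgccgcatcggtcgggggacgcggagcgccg
Mrps18b: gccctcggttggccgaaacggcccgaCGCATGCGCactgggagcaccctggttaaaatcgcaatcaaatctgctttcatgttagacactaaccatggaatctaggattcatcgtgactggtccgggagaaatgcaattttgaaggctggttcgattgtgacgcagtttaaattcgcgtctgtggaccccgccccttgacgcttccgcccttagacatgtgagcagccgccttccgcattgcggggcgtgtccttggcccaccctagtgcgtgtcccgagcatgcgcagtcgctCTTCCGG
Mrpl47: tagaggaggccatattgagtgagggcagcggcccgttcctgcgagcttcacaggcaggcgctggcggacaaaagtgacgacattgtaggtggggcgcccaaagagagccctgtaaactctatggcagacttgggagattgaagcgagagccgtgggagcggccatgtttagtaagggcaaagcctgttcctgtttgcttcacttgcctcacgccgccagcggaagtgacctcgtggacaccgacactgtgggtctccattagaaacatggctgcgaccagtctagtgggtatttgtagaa
Of the genes called lower at 12 h, all 19 had a window, of which 0 held the NRF1 core, 8 (42.1%) the ETS core and 2 (10.5%) the YY1 core. Of the 44 genes with a window that were not called at 12 h, 6 (13.6%) held the NRF1 core, 15 (34.1%) the ETS core and 5 (11.4%) the YY1 core. Only 4 of the genes called higher had a window, and 1, 2 and 1 of them held the NRF1, ETS and YY1 cores. These shares were not tested.

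After 12 h of 5 µM berberine, 19 mitochondrial ribosomal protein genes were lower and 6 were higher than in DMSO, at an adjusted p under 0.05 by limma with Benjamini-Hochberg adjustment over all genes tested. That is 25% lower and 7.89% higher, against 14.6% lower and 13.7% higher among all 12136 genes. Both directions together make 32.9% of the mitochondrial ribosomal protein genes and 28.2% of all genes. Changes were small: they ran between -1.11 and 0.37 on the log2 scale, 49 of 76 lay within 0.2 of 0, and the median was -0.04, against -0.01 over all genes. By sign, 43 of the 76 were lower and 33 higher. In cultured cells measured in bulk, fewer cells of a type and less RNA per cell cannot be told apart.

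Arrays of the 12 h group lay all below those of DMSO in 20 of the 76 genes and all above in 10, against 39.4% of all genes with no overlap in either direction. Among the 25 called genes 23 did not overlap, and the exceptions were Mrpl33 and Mrpl47. The calls came from the same arrays, so this adds no separate support.

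**Figure D1:**
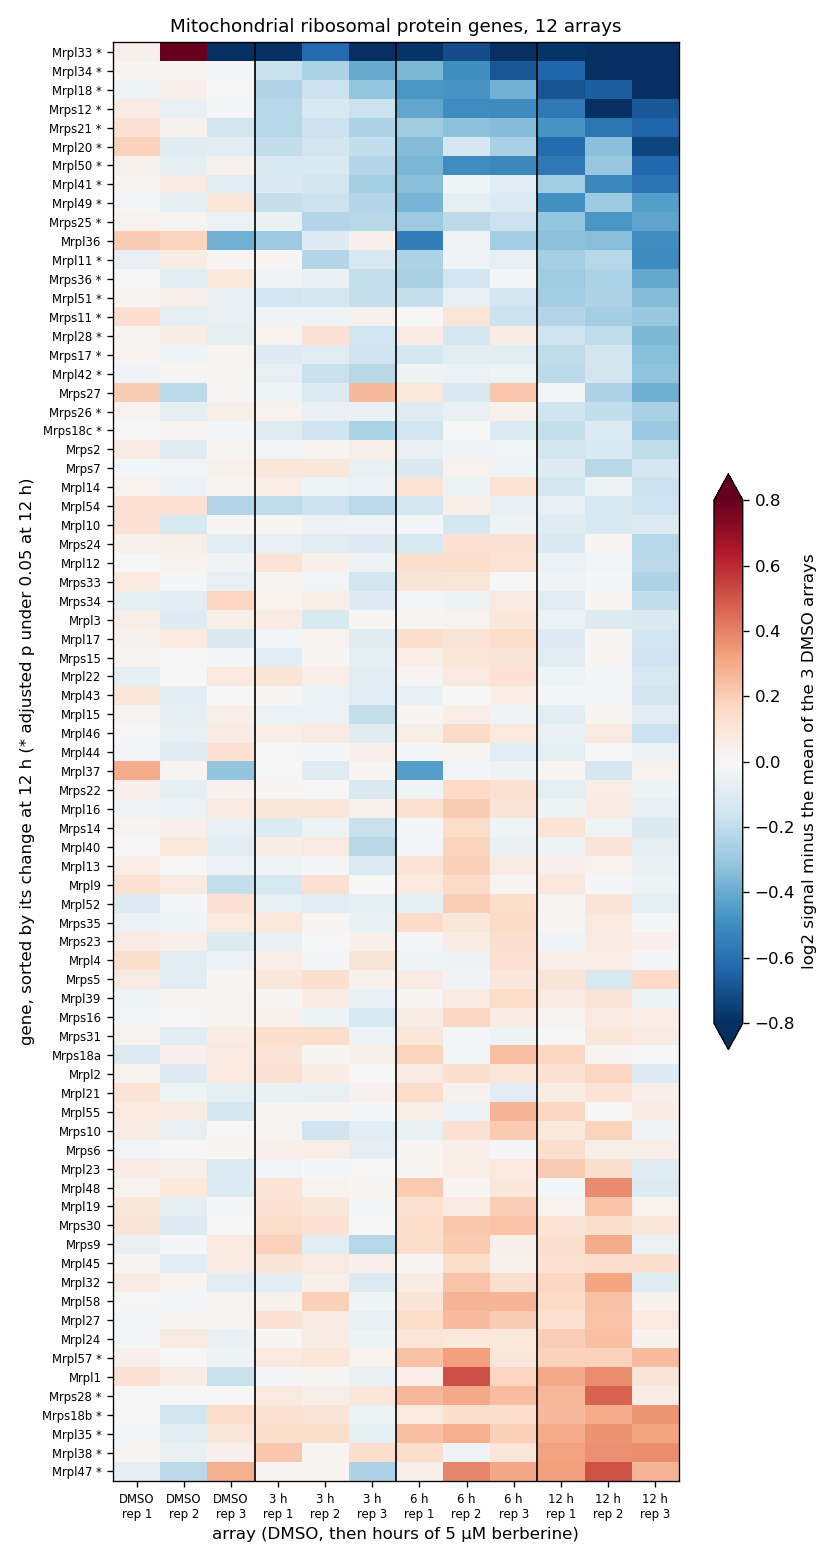
Log2 signal of the 76 mitochondrial ribosomal protein genes (rows) on the 12 arrays (columns), each minus the gene's mean over the 3 DMSO arrays, with colour limits at 0.8 in each direction. Genes run from the largest fall at 12 h at the top to the largest rise at the bottom, and an asterisk marks the 25 called at 12 h. Most rows stay near 0. Of the 19 genes called lower at 12 h, 10 had means that fell at each time. The 19 were chosen as low at 12 h against the same DMSO arrays, which favours such an order. The matching share of all genes called lower was not counted. The median of these 19 per array was -0.22 to -0.12 at 3 h, -0.28 to -0.13 at 6 h and -0.44 to -0.28 at 12 h, so 3 h and 6 h overlapped.

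Mrpl18 encodes a large-subunit protein with a bacterial counterpart, placed in the central protuberance, the part of the subunit that touches transfer RNAs. Its log2 signal was 12.02, 12.09 and 12.05 in DMSO, 11.81, 11.88 and 11.74 at 3 h, 11.58, 11.58 and 11.67 at 6 h, and 11.36, 11.39 and 11.25 at 12 h. No 2 neighbouring groups overlapped. The fall against DMSO was -0.44 ± 0.06 at 6 h (SE, 1.36-fold, adjusted p = 0.000133, limma) and -0.72 ± 0.06 at 12 h (1.65-fold, adjusted p = 1.69e-07). At 3 h the value was -0.24 ± 0.06 (adjusted p = 0.056, not called), the smallest adjusted p of the 76 genes at that time.

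Mrps12 encodes the small-subunit protein at the decoding site, the counterpart of the bacterial protein in which streptomycin resistance mutations arise. Arrays gave 11.36, 11.24 and 11.28 in DMSO, 11.07, 11.17 and 11.12 at 3 h, 10.88, 10.80 and 10.79 at 6 h, and 10.72, 10.50 and 10.62 at 12 h. Again no neighbouring groups overlapped. The change was -0.47 ± 0.07 at 6 h (adjusted p = 0.000235, limma) and -0.68 ± 0.07 at 12 h (1.61-fold, adjusted p = 1.26e-06).

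Mrpl34 encodes one of the smallest large-subunit proteins, with a bacterial counterpart. Its signal was 11.37, 11.37 and 11.35 in DMSO, 11.19, 11.11 and 10.96 at 3 h, 11.002, 10.87 and 10.68 at 6 h, and 10.73, 10.36 and 10.56 at 12 h. All berberine arrays lay below all DMSO arrays. The fall was -0.51 ± 0.09 at 6 h (adjusted p = 0.00147, limma) and -0.81 ± 0.09 at 12 h (1.75-fold, adjusted p = 4.95e-06). A second, dimmer probe set of the gene (mean log2 signal 6.85) read 0.28 ± 0.25 at 12 h (adjusted p = 0.481 over all kept probe sets), and with the mean of both probe sets the calls ended (-0.26 at 12 h, adjusted p = 0.117, and -0.31 at 6 h, adjusted p = 0.111).

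Mrps21 encodes a small-subunit protein with a bacterial counterpart. Values were 11.59, 11.51 and 11.33 in DMSO, 11.25, 11.31 and 11.23 at 3 h, 11.20, 11.15 and 11.13 at 6 h, and 11.01, 10.89 and 10.84 at 12 h. The 12 h arrays lay below all others. The change was -0.32 ± 0.07 at 6 h (adjusted p = 0.00654, limma) and -0.57 ± 0.07 at 12 h (adjusted p = 1.4e-05). With the mean of its probe sets, the second of which sat near the threshold at 5.86, the change read 0.00 at 6 h (adjusted p = 0.998) and -0.29 at 12 h (adjusted p = 0.227).

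Mrpl50 encodes a large-subunit protein without a bacterial counterpart. Arrays gave 10.59, 10.48 and 10.59 in DMSO, 10.43, 10.43 and 10.32 at 3 h, 10.19, 10.06 and 10.04 at 6 h, and 9.98, 10.25 and 9.93 at 12 h. The 6 h and 12 h arrays overlapped each other and lay below DMSO. The fall was -0.46 ± 0.09 at 6 h (adjusted p = 0.00175, limma) and -0.50 ± 0.09 at 12 h (adjusted p = 0.000295). Its second probe set, at a mean of 9.68, read -0.72 ± 0.10 at 12 h (adjusted p = 8.5e-05 over all kept probe sets).

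Mrpl33, another large-subunit gene with a bacterial counterpart, had the largest difference in means and the widest spread. Its log2 signal was 11.54, 12.29 and 10.66 in DMSO, 10.60, 10.88 and 10.57 at 3 h, 10.71, 10.79 and 10.67 at 6 h, and 10.71, 10.21 and 10.24 at 12 h. Only 1 DMSO array, replicate 3, lay within the range of the berberine arrays. The change was -0.82 ± 0.25 at 3 h (adjusted p = 0.122, not called, limma), -0.78 ± 0.25 at 6 h (adjusted p = 0.0487) and -1.11 ± 0.25 at 12 h (2.16-fold, adjusted p = 0.003). Without DMSO replicate 2 the change read -0.42 at 3 h (adjusted p = 0.347), -0.38 at 6 h (adjusted p = 0.223) and -0.71 at 12 h (adjusted p = 0.00982). Without DMSO replicate 3 it read -1.23 at 3 h (adjusted p = 0.00152), -1.19 at 6 h (adjusted p = 0.000326) and -1.53 at 12 h (adjusted p = 8.87e-06). The 6 h call also ended without DMSO replicate 1 (adjusted p = 0.123) and without any 1 of the 6 h arrays (adjusted p = 0.0963 to 0.119).

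**Figure D2:**
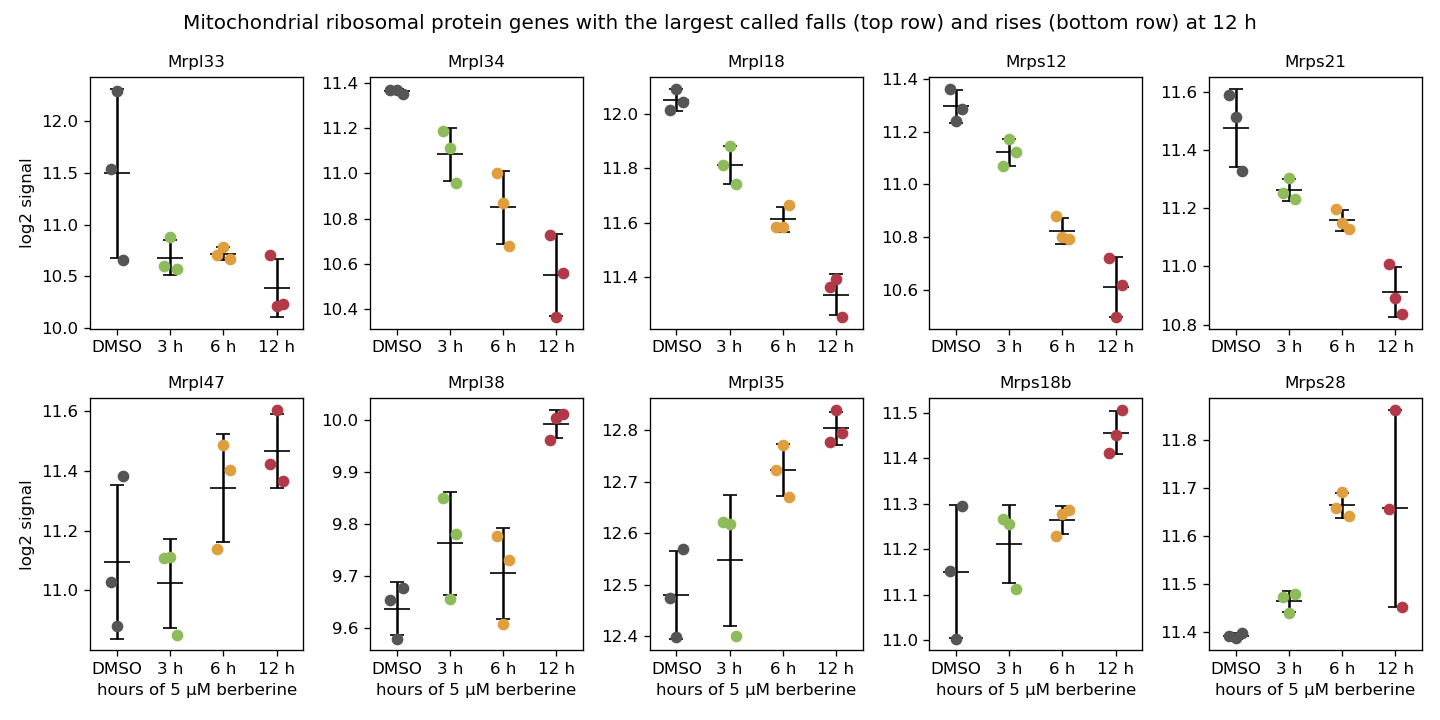
Log2 signal per array (points) of the 5 genes with the largest called falls at 12 h (top) and the 5 with the largest called rises (bottom), in DMSO and after 3, 6 and 12 h of berberine, with the mean (line) and SD (bars) of 3 arrays. Each panel has its own vertical axis, which does not start at 0; Mrpl18 steps down from group to group without overlap, and Mrpl33 has DMSO arrays between 10.66 and 12.29.

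Beyond these, 13 more genes were lower at 12 h. Mrpl20, a large-subunit protein that in bacteria helps the subunit assemble, fell by 0.56 on the log2 scale (SE 0.09, adjusted p = 0.000217, limma), with 11.41, 11.69 and 11.29 at 12 h against 12.21, 11.93 and 11.94 in DMSO. Mrpl41 read -0.46, Mrpl49 -0.40 and Mrps25 -0.40, all proteins without a bacterial counterpart, at adjusted p of 0.000682, 0.00138 and 0.000551. Mrpl11, which sits at the base of the stalk that receives translation factors, read -0.33 (adjusted p = 0.00648), and Mrpl51 -0.29 (adjusted p = 0.00068). The remaining 7 lay between -0.32 and -0.20: Mrps36, Mrps11, Mrpl28, Mrps17, Mrpl42, Mrps26 and Mrps18c. Of these 7 calls, 4 ended when single arrays were left out. The Mrpl28 call ended without 12 h replicate 2 or 3 or DMSO replicate 1 or 2 (adjusted p = 0.0526 to 0.137) and that of Mrps18c without 12 h replicate 1 or 3 or DMSO replicate 1 or 2 (0.059 to 0.122). The Mrps26 call ended without 12 h replicate 3 or DMSO replicate 1 or 3 (0.054 to 0.0592), and that of Mrps11 without 12 h replicate 3 or DMSO replicate 1 (0.0546 and 0.108). Mrpl28 also read -0.12 with the mean of its probe sets (adjusted p = 0.432). The probe set used for it had a mean of 11.18. Of its further probe sets, left out because they end in _x_at, that at a mean of 11.21 read -0.25 (adjusted p = 0.0156 over all kept probe sets, limma). Another read 0.125 (0.779).

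Rises were smaller. Mrpl35, a large-subunit protein with a bacterial counterpart, had 12.47, 12.40 and 12.57 in DMSO, 12.62, 12.62 and 12.40 at 3 h, 12.72, 12.77 and 12.67 at 6 h, and 12.78, 12.84 and 12.80 at 12 h. The 6 h and 12 h arrays lay above all DMSO arrays, with a change of 0.24 ± 0.07 at 6 h (adjusted p = 0.0214, limma) and 0.32 ± 0.07 at 12 h (1.25-fold, adjusted p = 0.00136). The 6 h call ended without 6 h replicate 1 or 2 or DMSO replicate 1 or 2 (adjusted p = 0.0532 to 0.0879).

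Mrpl38, a central protuberance protein without a bacterial counterpart, had 9.96, 10.00 and 10.01 at 12 h against 9.66, 9.58 and 9.68 in DMSO, a change of 0.35 ± 0.08 (adjusted p = 0.00317, limma). Mrps18b had 11.41, 11.45 and 11.51 at 12 h against 11.15, 11.003 and 11.30 in DMSO, a change of 0.31 ± 0.07 (adjusted p = 0.00452). In both genes the groups did not overlap, and neither was called at 6 h (0.07 and 0.11).

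Mrpl47, near the exit tunnel, where new proteins leave the subunit, had 11.42, 11.60 and 11.37 at 12 h against 11.03, 10.88 and 11.38 in DMSO, a change of 0.37 ± 0.12 (adjusted p = 0.0245, limma). DMSO replicate 3 lay within the 12 h range, and the call ended without 12 h replicate 2 or DMSO replicate 1 or 2 (adjusted p = 0.0862 to 0.124). With the mean of its probe sets the change read -0.25 (adjusted p = 0.103), and its second probe set was called lower, as given below.

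Mrps28, a small-subunit protein, had 11.39, 11.39 and 11.40 in DMSO, 11.47, 11.44 and 11.48 at 3 h, 11.66, 11.69 and 11.64 at 6 h, and 11.66, 11.86 and 11.45 at 12 h. All berberine arrays lay above DMSO, with a change of 0.27 ± 0.08 both at 6 h (adjusted p = 0.0268, limma) and at 12 h (adjusted p = 0.0166). Without 12 h replicate 2 the later change was 0.16 (adjusted p = 0.113), and the 6 h call ended without any 1 of the 6 arrays compared (adjusted p = 0.0546 to 0.0874). Mrpl57, a small large-subunit protein without a bacterial counterpart, had 12.05, 12.05 and 12.12 at 12 h against 11.91, 11.86 and 11.83 in DMSO, a change of 0.21 ± 0.06 (adjusted p = 0.0203). Its 12 h call ended without 12 h replicate 3 (adjusted p = 0.0694) or DMSO replicate 3 (0.0622), and its 6 h call (0.22, adjusted p = 0.028) without 6 h replicate 1 or 2 or DMSO replicate 2 or 3 (0.0579 to 0.147).

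Earlier times held fewer calls. At 6 h, 4 genes were higher and 6 lower, which is 13.2% of the 76 genes against 14.2% of all genes (7.24% higher and 6.98% lower). The lower ones were Mrpl33, Mrpl34, Mrps12, Mrpl50, Mrpl18 and Mrps21, and the higher ones Mrps28, Mrpl35, Mrpl57 and Mrpl27. Of these 10 genes 9 were also called at 12 h, all 9 in the same direction, and the matching share of all genes was not counted. The exception was Mrpl27, close to the catalytic site in the bacterial ribosome, with 12.72, 12.82 and 12.77 at 6 h against 12.55, 12.58 and 12.58 in DMSO (0.20 ± 0.06, adjusted p = 0.0366, limma), and 0.14 at 12 h (adjusted p = 0.0942). Its 6 h call ended without 6 h replicate 2 or 3 or any 1 of the DMSO arrays (adjusted p = 0.0622 to 0.137). The 6 h and 12 h contrasts share the DMSO arrays, which favours agreement between their calls. The count of 10 at 6 h dropped to 5 without 6 h replicate 2 and to 5 without DMSO replicate 2. The median change at 6 h was 0.05 (49 genes positive and 27 negative), against 0.01 over all genes.

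At 3 h, 0 of the 76 genes were called by limma, against 1.9% of all genes (1.09% higher and 0.816% lower). Without DMSO replicate 3 the count of calls was 3. An unadjusted p under 0.05 was seen in 11 of the 76. The share of all genes under that looser cut was not counted, and the 1.9% does not serve for it. The extremes, given as values, were Mrpl38 (0.13 ± 0.08) and Mrps30 (0.09 ± 0.07) on the high side and Mrpl33 and Mrpl34 (-0.28 ± 0.09) on the low side. The median was -0.02, against 0.02 over all genes, with 29 positive and 47 negative changes.

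**Figure D3:**
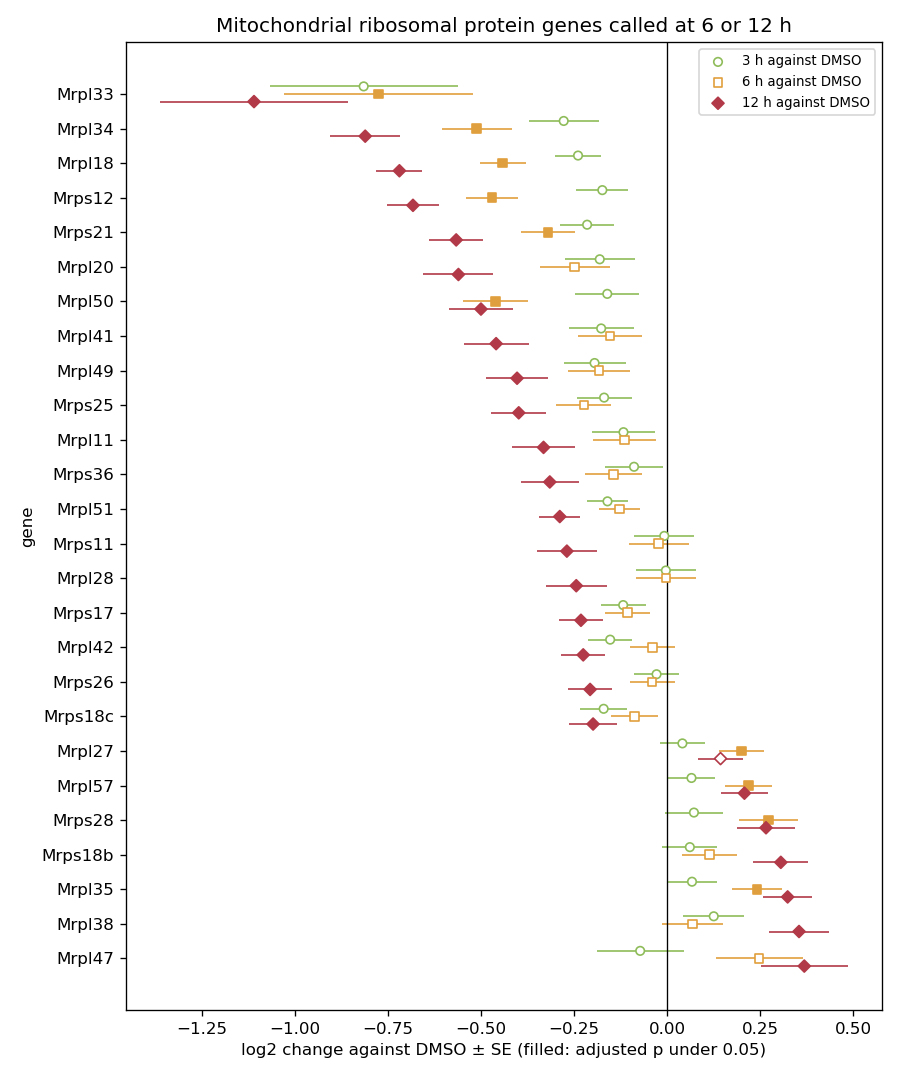
Log2 change against DMSO at 3 h (circles), 6 h (squares) and 12 h (diamonds) of the 26 genes called at 6 h or 12 h, with SE from limma and filled symbols where the adjusted p was under 0.05. The 3 contrasts share the DMSO arrays; all 3 h symbols are open, and the falls at 12 h reach -1.11 while the rises end at 0.37.

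Berberine times were also compared with each other, which leaves the DMSO arrays out of the difference. No DMSO group was labelled as matched to a berberine time. Time in berberine and time in culture therefore cannot be told apart, here or in the contrasts with DMSO. Between 12 h and 3 h, 3 genes were higher and 12 lower, 19.7% of the 76 against 17.7% of all genes. The largest differences were those of Mrpl34 (-0.53 ± 0.09, adjusted p = 0.000692, limma) and Mrps12 (-0.51 ± 0.07, adjusted p = 6.24e-05) on the low side and Mrpl47 (0.44 ± 0.12, adjusted p = 0.013) and Mrpl35 (0.26 ± 0.07, adjusted p = 0.0118) on the high side. Mrpl18 differed by -0.48 ± 0.06 (adjusted p = 3.28e-05). Leaving out 1 array gave 7 to 11 calls, with 7 without 12 h replicate 2 and 9 without 3 h replicate 1. The Mrpl47 call ended when 12 h replicate 2 (adjusted p = 0.0681) or 3 h replicate 3 (0.0737) was left out, and that of Mrpl35 when 3 h replicate 3 was (0.0717). With the mean of probe sets the calls of Mrpl34 (-0.29, adjusted p = 0.119), Mrpl35 (0.03, 0.908) and Mrpl47 (-0.18, 0.333) ended.

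Between 12 h and 6 h 1 gene was higher and 3 were lower, against 5.69% of all genes called. Mrpl38 read 0.29 ± 0.08 (adjusted p = 0.0469, limma), Mrpl41 -0.31 ± 0.09 (0.0475), Mrpl18 -0.28 ± 0.06 (0.0124) and Mrpl12 -0.22 ± 0.06 (0.0379). By sign, 62 of the 76 genes were lower at 12 h than at 6 h and 14 higher, with a median of -0.08 against -0.01 over all genes. The Mrpl38 call ended without any 1 of the 6 arrays compared (adjusted p = 0.0593 to 0.188), and its sign turned with the mean of its probe sets (-0.07, 0.89). The call of Mrpl18 ended without 6 h replicate 3 (0.0509) or 12 h replicate 3 (0.0604). Leaving out the single arrays in turn left 0 to 4 calls, with 0 without 12 h replicate 3, 1 without 6 h replicate 2 and 2 without 6 h replicate 3.

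Between 6 h and 3 h, Mrps12 alone was called, lower by -0.30 ± 0.07 (adjusted p = 0.0314, limma), against 2.34% of all genes. That call ended without any 1 of the 3 h arrays or 6 h replicate 2 or 3 (adjusted p = 0.064 to 0.127). The F test of limma for any difference from DMSO called 22 of the 76 genes (28.9%), against 25.1% of all genes.

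Both subunits held genes of both directions, and the counts of each class stand against 13.7% higher and 14.6% lower among all genes at 12 h. At 12 h the large subunit, with Mrps30 and Mrps18a, which are known to sit there, had 4 genes higher and 11 lower of 49, and the small subunit 2 higher and 7 lower of 26, with Mrps36 counted in neither. Large-subunit proteins with a bacterial counterpart had 2 higher and 6 lower of 29, and those without one 2 higher and 5 lower of 20. In the small subunit the counts were 2 higher and 5 lower of 17 with a counterpart, and 0 higher and 2 lower of 9 without. By place, 1 of 4 stalk proteins was lower (Mrpl11), 1 of 9 exit tunnel proteins was higher (Mrpl47), and of 6 central protuberance proteins 1 was higher (Mrpl38) and 1 lower (Mrpl18). Differences between these classes were not tested.

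Several members are known for more than their place in the ribosome. Mrpl12, the stalk protein that has also been reported to bind the mitochondrial RNA polymerase, had 13.36, 13.38 and 13.33 in DMSO, 13.47, 13.40 and 13.32 at 3 h, 13.49, 13.50 and 13.47 at 6 h, and 13.31, 13.34 and 13.14 at 12 h. Its 6 h arrays lay above DMSO, without a call (0.13, adjusted p = 0.189, limma), and the 12 h arrays below those of 6 h. The call between 12 h and 6 h ended without any 1 of the 6 h arrays or 12 h replicate 1 or 3 (adjusted p = 0.0606 to 0.15), and so did that of Mrpl41 without 6 h replicate 2 or 3 or 12 h replicate 2 or 3 (0.145 to 0.199).

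Mrps36, named as a ribosomal protein but described since as a subunit of the alpha-ketoglutarate dehydrogenase complex of the citric acid cycle, was lower at 12 h. It had 10.94, 10.97 and 10.81 at 12 h against 11.22, 11.13 and 11.31 in DMSO (-0.32 ± 0.08, adjusted p = 0.00511, limma). Mrpl58, a hydrolase that frees peptides from stalled ribosomes, had 11.24, 11.32 and 11.12 at 12 h against 11.08, 11.07 and 11.10 in DMSO, above in all 3 arrays but not called (0.14, adjusted p = 0.187).

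Mrps18a, Mrps18b and Mrps18c encode versions of a single bacterial protein, and their changes at 12 h had different signs. Mrps18b rose, as given above. Mrps18c had 12.38, 12.46 and 12.27 at 12 h against 12.57, 12.58 and 12.55 in DMSO and fell (-0.20 ± 0.06, adjusted p = 0.0268, limma). Mrps18a had 12.74, 12.59 and 12.57 at 12 h against 12.47, 12.62 and 12.65 in DMSO, with overlapping groups (0.06, adjusted p = 0.627). The 3 genes were not tested against each other.

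Mrpl44, with the fold of a bacterial ribonuclease, had 11.76, 11.84 and 11.79 at 12 h against 11.82, 11.74 and 11.96 in DMSO (-0.04, adjusted p = 0.682, limma). Mrpl3, near the site of peptide bond formation, had 11.63, 11.58 and 11.57 at 12 h against 11.74, 11.58 and 11.73 in DMSO (-0.09, adjusted p = 0.354). In both the groups overlapped. The mean of the probe sets of Mrpl3, which takes in the called one given below, read -0.32 at 12 h and was called (adjusted p = 0.00355).

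Mean log2 signals of the 76 genes ran between 8.58 and 13.75, with a median of 11.51, well above the detection threshold of 5.77. Probe sets differ in how brightly they bind, so these signals give no order of transcript levels between genes. The brightest were Mrpl39, which had 13.80, 13.82 and 13.68 at 12 h against 13.69, 13.74 and 13.74 in DMSO, Mrpl51, with 13.58, 13.61 and 13.50 against 13.87, 13.89 and 13.80, and Mrps6, with 13.65, 13.57 and 13.57 against 13.49, 13.52 and 13.53. The dimmest were Mrps27, with 8.59, 8.36 and 8.22 at 12 h against 8.81, 8.40 and 8.62 in DMSO, Mrpl55, with 9.09, 8.92 and 8.98 against 8.997, 8.98 and 8.78, and Mrpl37, with 9.52, 9.36 and 9.53 against 9.79, 9.52 and 9.18. Of these 6 genes Mrpl51 was called at 12 h. Among the genes not called at 12 h the changes lay between -0.39 (Mrpl36, adjusted p = 0.0538, limma) and 0.26 (Mrpl1).

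A gene stands here for its brightest kept probe set, with those ending in _x_at used only where no other was kept. More than 1 probe set was kept for 36 of the 76 genes. The share called at 12 h among all 25053 kept probe sets was not counted. Counts of further probe sets called, here and below, therefore have no share to stand against. Among the genes called lower at 12 h, 10 had 14 further probe sets, of which 12 were also lower in sign and 8 were called, all lower. Means of these 14 ran from 5.33, under the threshold of 5.77, to 11.51, and their changes from -2.50 to 0.28. Mrpl49 read -1.10 ± 0.09 on its second probe set (adjusted p = 2.24e-07 over all kept probe sets, limma) and -0.40 on the brightest. For Mrpl41 the second read -0.56, for Mrps25 -0.69 and for Mrpl51 -0.78.

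Among the genes called higher, 4 had 6 further probe sets, and all 6 were lower in sign. They were dim, with means between 6.33 and 7.20, and 1 was called: the second probe set of Mrpl47 had 6.59, 6.87 and 6.40 at 12 h against 7.51, 7.65 and 7.34 in DMSO (-0.88 ± 0.21, adjusted p = 0.00483, limma). For Mrpl35 the other probe sets read -0.15 and -0.36, for Mrpl38 -0.37 and -0.14 and for Mrpl57 -0.59, none of them called. With the mean of all kept probe sets, the 12 h change was -0.06 for Mrpl35, -0.05 for Mrpl38, -0.25 for Mrpl47 and -0.19 for Mrpl57, and none of these was called. Mrps18b and Mrps28 had 1 kept probe set each.

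Of the 41 further probe sets of genes not called at 12 h, 3 were called, named here after their values were seen. One of Mrpl1 read -0.67 ± 0.11 (adjusted p = 0.000306, limma) and one of Mrpl3 -0.75 ± 0.17 (adjusted p = 0.00367). The third, of Mrps10, was under the threshold in DMSO (4.76, 3.84 and 3.90) and above it on every berberine array, with 7.05, 6.81 and 7.01 at 3 h, 7.14, 6.54 and 6.35 at 6 h, and 6.23, 6.69 and 7.10 at 12 h (adjusted p = 0.000107 at 12 h). This Mrps10 probe set passed the filter only through the berberine arrays, where it was high, so its call adds no separate support. The brightest probe set of Mrps10, at a mean of 11.59, read 0.08 at 12 h.

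**Figure D4:**
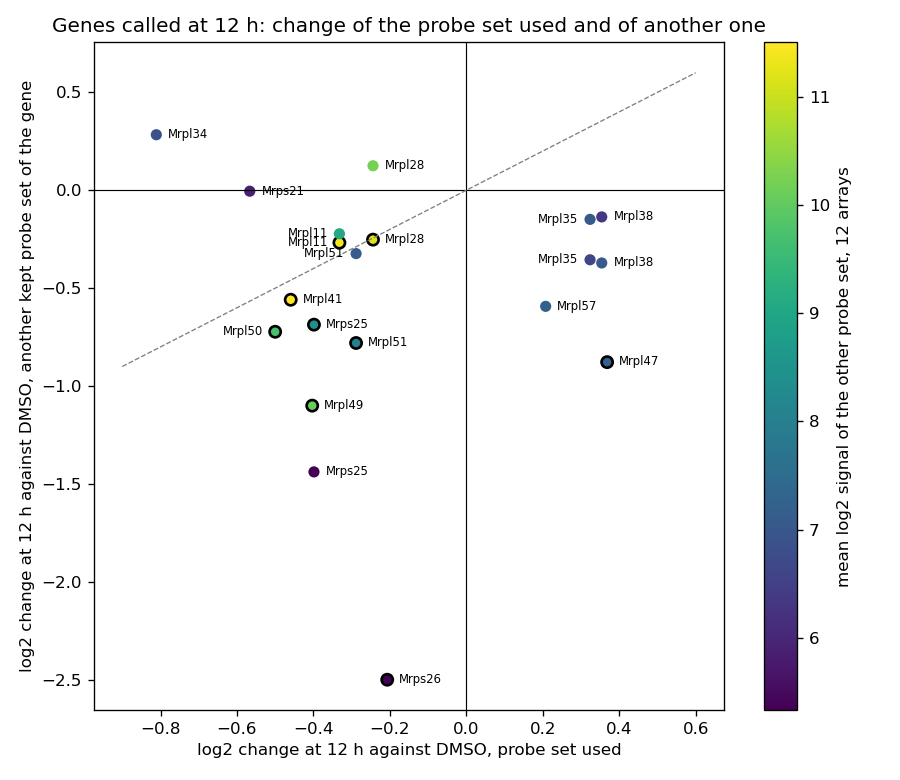
Log2 change at 12 h against DMSO of the probe set used (horizontal axis) and of each further kept probe set (vertical axis) for the 14 genes called at 12 h that have one, coloured by the mean log2 signal of the further probe set. Black rims mark an adjusted p under 0.05 for the further probe set, and the dashed line marks equal changes; the points of genes that rose all lie below 0 on the vertical axis.

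Genes around the mitochondrial ribosome were taken from lists. Their counts at 12 h stand against 13.7% higher and 14.6% lower among all genes, and no list was tested as a set. Of the subunits outside the symbol rule, 2 of 4 were lower at 12 h and none higher: Ptcd3 (-0.43 ± 0.06, adjusted p = 3.97e-05, limma) and Dap3 (-0.25 ± 0.07, adjusted p = 0.00679), both of the small subunit. Of 14 mitochondrial translation factors 4 were lower and none higher. They were Tsfm, an elongation factor (-0.43, adjusted p = 0.00431), Mtfmt, which formylates the initiator transfer RNA (-0.47, 0.00382), Pdf, which removes the formyl group (-0.48, 0.000629), and Slirp, which binds mitochondrial messages (-0.26, 0.0311). The Slirp call ended without 12 h replicate 1 or 3 or DMSO replicate 1 (adjusted p = 0.0934 to 0.158), and that of Mtfmt with the mean of its probe sets (-0.35, 0.138). Across the list the median change was -0.17.

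Of 26 assembly and RNA modification factors 3 were higher and 4 lower at 12 h, with a median of 0.02. Among all genes the shares were 13.7% higher and 14.6% lower. Mterf3 (0.38 ± 0.07, adjusted p = 0.000263, limma), Malsu1, which keeps unfinished large subunits from joining (0.38 ± 0.06, 0.000109), and the GTPase Mtg1 (0.34 ± 0.08, 0.00339) rose. Mrm2, which methylates the large ribosomal RNA (-0.64 ± 0.17, 0.00812), Trmt2b (-0.36 ± 0.08, 0.00224), Mettl17 (-0.46 ± 0.14, 0.0202) and Noa1 (-0.37 ± 0.13, 0.0353) fell. The Mettl17 call ended without 12 h replicate 1 or 2 or DMSO replicate 1 or 2 (adjusted p = 0.0539 to 0.0852), and that of Noa1 without 5 of the 6 arrays (0.062 to 0.164), DMSO replicate 1 being the exception. Over the mean of probe sets Mettl17 read -0.03 (adjusted p = 0.955) and Noa1 -0.37 (0.0508).

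Of 13 genes for transcription and upkeep of the mitochondrial genome 3 were lower and none higher: the mitochondrial RNA polymerase Polrmt (-0.45 ± 0.09, adjusted p = 0.000968, limma), Mterf2 (-0.36, 0.00719) and the DNA polymerase Polg (-0.29, 0.0232). The Polg call ended without 12 h replicate 2 or 3 or DMSO replicate 3 (adjusted p = 0.0708 to 0.104). Tfam, the packaging and transcription factor of the mitochondrial genome, read -0.06 (adjusted p = 0.661). No symbol of a gene of the mitochondrial genome itself was among those tested. The counts of this list and of the import genes stand against 13.7% higher and 14.6% lower among all genes. Of 22 import genes 1 was higher, Timm10 (0.34, 0.00244), and 3 were lower: Timm22 (-0.50, 0.000215), Timm21 (-0.29, 0.019) and Pmpca (-0.25, 0.00601). The Timm21 call ended without 12 h replicate 1 (0.104) or DMSO replicate 1 (0.105). Averaged over probe sets, Polg read -0.19 (adjusted p = 0.176) and Pmpca -0.20 (0.0668), neither of them called.

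Of 9 regulators of nuclear genes for mitochondria 6 were called higher and 1 lower at 12 h, against 13.7% and 14.6% of all genes, with a median of 0.36 and with 2 of the 6 calls, Esrra and Yy1, lost in several settings. Ppargc1a, the coactivator known as PGC-1alpha, had 8.43, 8.27 and 8.24 in DMSO, 8.96, 9.14 and 9.03 at 3 h, 9.14, 9.27 and 9.47 at 6 h, and 9.19, 9.59 and 9.57 at 12 h. It was called at each time, with changes of 0.73 ± 0.12 (adjusted p = 0.00299, limma), 0.98 ± 0.12 (4.54e-05) and 1.14 ± 0.12 (2.21e-06). Gabpb1, a subunit of the ETS factor GABP, had 6.61, 6.37 and 6.70 in DMSO, 7.37, 7.13 and 7.27 at 3 h, 7.58, 8.03 and 7.56 at 6 h, and 8.30, 7.84 and 8.00 at 12 h. The change was 1.49 ± 0.20 at 12 h (2.81-fold, adjusted p = 2.18e-05), while its partner Gabpa read 0.11 (adjusted p = 0.56).

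Nrf1, the factor whose core was searched in the promoters, had 8.49, 8.92 and 8.64 at 12 h against 7.88, 7.49 and 8.00 in DMSO (0.89 ± 0.17, adjusted p = 0.000678, limma). Its change was 0.58 with the mean of its probe sets (adjusted p = 0.0944). Pprc1, a relative of Ppargc1a, read 0.41 (0.00569), and Myc, which drives many biosynthetic genes, read -0.57 ± 0.09 (0.000133). The calls of Esrra (0.36, adjusted p = 0.0269) and Yy1 (0.16, 0.0419) depended on single arrays. That of Esrra ended without 12 h replicate 3 or DMSO replicate 1 or 3 (adjusted p = 0.0521 to 0.121), and that of Yy1 without any 1 of the 6 arrays compared (0.0539 to 0.124). On the mean of probe sets Esrra read -0.10 (adjusted p = 0.738), the opposite sign, and Yy1 0.20 (0.217).

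Of the 76 genes 23 had, by the RefSeq annotation of GRCm38.p6, such a head-to-head neighbour with a start within 500 bases, and 21 had a neighbour that was tested. Of the 8 called at 12 h with a tested neighbour, 2 had a called neighbour, against 28.2% of all genes called. How many of all genes have such a neighbour was not counted. Mrpl18 and Tcp1, a subunit of a cytosolic chaperonin, were both lower (-0.72 and -0.18, with adjusted p = 0.0375 for Tcp1, limma), while Mrpl49 was lower and Fau, a cytosolic ribosomal protein, higher (-0.40 and 0.25, adjusted p = 0.0255 for Fau). Mrps11 was lower at -0.27 and its neighbour Mrpl46, another mitochondrial ribosomal protein gene, read -0.05 (adjusted p = 0.65). Mrps12 was lower at -0.68 and its neighbour Sars2, the mitochondrial seryl-tRNA synthetase, read -0.12 (adjusted p = 0.825). Of the 13 uncalled genes with a tested neighbour, 5 had a called one.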

How the data were processed

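Values were 1 column per array of deposited log2 signals for 45101 probe sets, including 64 controls. Per the submitters' processing notes the authors used MAS5, whose version is not given in the sources used here. Converted to linear signals, the deposited log2 values had a 2% trimmed mean of 500.004 on each array, so the arrays appear scaled by a single factor each, which leaves in any bias that differs with brightness. Between 255 and 480 values per array were at 0, where signals under 1 appear raised to 1. Scanner files and detection calls were not used here.

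The threshold was the median over non-control probe sets, 5.77 in log2 and 54.6 in linear signal. Probe sets reaching it on at least 3 of 12 arrays were kept (25053). Each gene was represented by its brightest kept probe set, where those ending in _x_at were used only for genes with no other kept probe set. Names came from the platform annotation. Groups were compared by limma 3.58.1 in R 4.3.3 (a mean per group over 12 arrays, 8 residual degrees of freedom, empirical Bayes with an intensity trend, two-sided), with Benjamini-Hochberg adjustment over 12136 genes and calls at an adjusted p under 0.05. Changes are differences of mean log2 signal and ± is the limma standard error. Single probe sets were tested the same way over all kept probe sets. Precision is limited by the number of arrays, 3 per group. The script was tested on simulated data. Named genes were, per contrast with DMSO, the 5 largest called falls and rises (with fewer than 2 called, the 2 most extreme, as values), per contrast between times the 2 largest of each, the 3 brightest and 3 dimmest, and those with a separate known role. Other called genes are named with less detail. Genes and lists were chosen with earlier results of these data known. Alternatives covered the normalization, the filter, the probe set rule, the variance model, the replicate number as a block and each array left out. Figures were drawn with matplotlib 3.10.9 in Python 3.11.15.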

Additional observations from a re-analysis of the deposited data

Results flagged for a closer look

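The direct comparison of 12 h with 3 h of berberine called 15 mitochondrial ribosomal protein genes (limma, Benjamini-Hochberg over all genes tested). That is 19.7% of the 76, near the 17.7% of all genes. The changes of these 15 against DMSO thus differed between these times. In each of the 15 the arrays of both times did not overlap, which adds no separate support because the calls came from the same arrays. The share of all genes without overlap between these times is not given here. Lower at 12 h than at 3 h were Mrpl34 by -0.53, Mrps12 by -0.51, Mrpl18 by -0.48, Mrpl20 by -0.38, Mrps21 by -0.35 and Mrpl50 by -0.34, with adjusted p between 3.28e-05 (Mrpl18) and 0.0104 (Mrpl50). Smaller differences were those of Mrpl41 (-0.28), Mrps11 (-0.26), Mrpl28 (-0.24), Mrps25 (-0.23), Mrps7 (-0.20) and Mrps26 (-0.18). Higher at 12 h than at 3 h were Mrpl47 by 0.44, Mrpl35 by 0.26 and Mrps18b by 0.24. Mrps7 was not called against DMSO at either time (-0.16 at 12 h and 0.04 at 3 h). The Mrps21 difference was -0.21 and not called with the mean of its probe sets (adjusted p = 0.462). The calls of Mrpl18 and Mrps12 were kept in all 16 settings tried. Leaving out 1 array ended the call of Mrpl50 (12 h replicate 3, adjusted p = 0.0532), Mrpl35 (3 h replicate 3, 0.0717), Mrpl47 (3 h replicate 3 or 12 h replicate 2, up to 0.0737) and Mrps18b (3 h replicate 3 or 12 h replicate 2 or 3, up to 0.126). It also ended the call of Mrpl41 (3 h replicate 1 or 2 or 12 h replicate 2 or 3, up to 0.133) and, for any 1 of the 6 arrays, that of Mrps11 (up to 0.0989) and Mrps26 (up to 0.168). The call of Mrpl28 ended without any 1 of them except 3 h replicate 3 (up to 0.21), that of Mrps7 except 3 h replicate 3 (up to 0.161), and that of Mrps25 without 3 h replicate 1 or 3 or 12 h replicate 2 or 3 (up to 0.183). Those of Mrpl28, Mrps26, Mrps25 and Mrps7 ended in 12, 11, 10 and 10 of the 16, with the highest adjusted p at 0.438, 0.249, 0.183 and 0.188.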

How the results depend on the processing

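At 12 h against DMSO the count of 25 ranged from 20 to 25 with 1 array left out and from 21 to 27 in the other settings. All 25 calls were kept under quantile normalization, cyclic loess, no filter, the strict filter, raised dim values and the replicate block, 22 with median centring, 18 with the mean of probe sets and 21 without the intensity trend. Of 35 single calls against DMSO at 6 h and 12 h, 17 were kept in every setting, 3 at 6 h and 14 at 12 h. The cause of the changes below was not tested.

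The 0 calls at 3 h became 2 with cyclic loess, 1 each with the strict filter, raised dim values and the mean of probe sets, and 0 to 3 with 1 array left out. At 6 h the 10 calls became 5 without the trend and 5 to 9 with 1 array left out. Between 6 h and 3 h the 1 call became 0 with median centring, 0 without the trend, 2 with the mean of probe sets and 0 to 1 with 1 array left out. Between 12 h and 6 h the 4 calls became 1 with median centring, 1 without a filter, 7 with the strict filter, 0 without the trend, 1 with only the 2 groups compared and 0 to 4 with 1 array left out. Between 12 h and 3 h the 15 calls became 6 without the trend and 7 to 11 with 1 array left out. The F test's 22 became 10 without the trend and 15 to 21 with 1 array left out. With the mean of probe sets the median at 6 h was 0.0071 in place of 0.0493. The same setting reversed Mrpl35 (-0.29), Mrpl57 (-0.0268) and Mrps21 (0.0008) at 6 h, and Mrpl35 (-0.0601), Mrpl38 (-0.0511), Mrpl47 (-0.25) and Mrpl57 (-0.19) at 12 h. Over all genes, 231 calls at 3 h became 93 without the trend and 114 with the mean of probe sets, 1726 at 6 h became 1099 with the mean of probe sets, 284 between 6 h and 3 h became 60 without the trend and 146 with the mean of probe sets, and 690 between 12 h and 6 h became 296 without the trend. With 1 array left out these counts over all genes reached lows of 117 at 3 h and 1116 at 6 h (both without DMSO replicate 1), 85 between 6 h and 3 h (without 3 h replicate 3) and 376 between 12 h and 6 h (without 6 h replicate 2).

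Replicate numbers did not pair the arrays: deviations of same-numbered arrays correlated at -0.04 to 0.03 over 18 pairs. With the replicate block the counts were 0, 10 and 26 at 3 h, 6 h and 12 h, 1 between 6 h and 3 h, 6 between 12 h and 6 h, and 14 between 12 h and 3 h. With 3 arrays per group the median standard error of a gene's change was 0.07 on the log2 scale, and changes near that size were not detectable.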
